A study of Homo sapiens with 6 samples.

Results

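FAM72 and SRGAP2 are neighbouring genes of human chromosome 1 that were copied together, and 7 of their copies were described here among the 17687 genes measured. The members were taken by symbol from the platform annotation: FAM72A, FAM72B, FAM72C, FAM72D, SRGAP2, SRGAP2B and SRGAP2C, each with 1 probe set. They were chosen because the 4 FAM72 copies had lower signal after ERK3 knockdown. The SRGAP2 copies were added as their neighbours in the genome. The comparison of the knockdown with its control is therefore given for the members as a description, and no p-value is attached to it.

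The cells were A375, an established line of human melanoma, harvested 3 days after they received a predesigned siRNA against ERK3 (siERK3, 3 arrays) or a negative control siRNA (siCon, 3 arrays). Both groups received an siRNA with the same transfection reagent, so no untransfected cells are in the comparison. Affymetrix Clariom S Pico arrays gave 1 log2 value per probe set. The labels do not say whether the 3 arrays of a group came from separate cultures, so errors and p-values cover the spread among arrays alone, and that spread may be technical.

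FAM72 genes encode small proteins. FAM72A is known to bind the nuclear form of uracil DNA glycosylase, UNG2, which removes uracil from DNA, and to promote its degradation, as shown in B cells. SRGAP2 is a Slit-Robo GTPase-activating protein: its F-BAR domain shapes membranes, and it also has a RhoGAP and an SH3 domain. In cortical neurons it acts in migration and synapse maturation. The human copies SRGAP2B and SRGAP2C are truncated forms that keep most of the F-BAR domain, and SRGAP2C is known to bind and inhibit the full-length protein.

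The knockdown and the arrays were checked first. MAPK6, the gene of ERK3, had log2 signals of 10.54, 10.32 and 10.67 on the siERK3 arrays, against 13.45, 13.55 and 13.62 on the siCon arrays. The groups were far apart, and the siERK3 signal was 12.2% of the siCon signal (log2 change -3.03 with an SE of 0.14, and limma's adjusted p = 0.000133). Permuting the 6 values exactly (two-sided) gave p = 0.1, the smallest that 3 against 3 arrays allow. Array medians lay between 7.06 and 7.10. Of 6 lineage markers of melanoma cells, 5 (SOX10, MITF, S100B, ERBB3 and SOX5) lay on all arrays above the 95th percentile of that array's 612 negative controls, which serves as the background level here (7.32 to 7.56 on the log2 scale). PAX3 and the 4 measured pigmentation genes MLANA, PMEL, TYR and TYRP1 lay below it on every array. So did the measured keratinocyte, leukocyte, endothelial and neuronal markers and 2 of 3 fibroblast markers, the other being COL1A2.

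The genomic arrangement frames the values. In RefSeq (GRCh38.p14), FAM72A and SRGAP2 are adjacent and run away from each other, with 702 bases between the start of SRGAP2 and the FAM72A start whose promoter is shown here. The other 3 annotated FAM72A starts lie beyond the SRGAP2 start, so those transcripts overlap SRGAP2. FAM72B is adjacent to SRGAP2C. FAM72C is adjacent to SRGAP2D, an annotated pseudogene that is not a member. FAM72D and SRGAP2B likewise run away from each other, with 594 or 646 bases between the matching FAM72D start and the 2 annotated SRGAP2B starts. RefSeq promoter windows, from 250 bases before to 50 after an annotated start, were at hand for 6 of the 7 members (13 windows). FAM72B was not matched.

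The promoter sequences of 2 FAM72 copies and of SRGAP2 are shown because the FAM72 copies moved together on the arrays while SRGAP2, which starts next to FAM72A, moved less. Each is the 250 bases before the start, 5′ to 3′ on the gene's own strand. Capitals mark 2 motifs, each searched on both strands, so that some are printed as the reverse complement. The first is CCAAT, the motif of the factor NF-Y. The second is TTTGAA, the cell cycle genes homology region or CHR, known from promoters of genes expressed in G2 and mitosis. In these sequences no match overlaps another.
FAM72A, GRCh38.p14 chr1:206202840-206203089, minus strand: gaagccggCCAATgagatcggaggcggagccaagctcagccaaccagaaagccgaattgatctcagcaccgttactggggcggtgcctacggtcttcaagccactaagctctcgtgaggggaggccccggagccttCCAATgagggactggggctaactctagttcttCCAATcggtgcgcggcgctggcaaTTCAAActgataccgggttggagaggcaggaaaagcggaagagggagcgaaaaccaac
FAM72C, GRCh38.p14 chr1:143971987-143972236, minus strand: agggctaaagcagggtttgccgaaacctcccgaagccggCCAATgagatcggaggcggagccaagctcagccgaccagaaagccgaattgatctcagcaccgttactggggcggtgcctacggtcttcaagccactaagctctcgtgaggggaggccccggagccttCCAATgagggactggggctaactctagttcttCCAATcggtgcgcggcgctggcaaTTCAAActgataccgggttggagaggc
SRGAP2, GRCh38.p14 chr1:206203291-206203540, plus strand: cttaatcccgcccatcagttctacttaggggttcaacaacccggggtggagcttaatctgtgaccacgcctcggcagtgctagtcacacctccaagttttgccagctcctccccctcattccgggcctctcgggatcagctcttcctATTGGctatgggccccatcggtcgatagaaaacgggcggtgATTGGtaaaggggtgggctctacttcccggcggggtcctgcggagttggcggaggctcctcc

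FAM72A, FAM72C and FAM72D shared nearly the whole of this promoter, and FAM72B had no window to compare. The FAM72A and FAM72C windows aligned over 269 bases with 268 identical, and those of FAM72C and FAM72D over 271 bases without a difference. Those of FAM72A and FAM72D aligned over 240 bases with 239 identical. Each of these FAM72A, FAM72C and FAM72D windows held 3 CCAAT matches on the gene's strand and 1 CHR match on the opposite strand. The CHR match began 24 bases after the first base of the last CCAAT in all 3 copies. It lay before the annotated start in FAM72A and FAM72C, and began 2 bases after the start in FAM72D, whose transcript is annotated to start further upstream in the shared sequence. The SRGAP2 window had 2 CCAAT matches, both on the opposite strand, and its alignment with SRGAP2B had 295 of 296 bases identical. No window of SRGAP2, SRGAP2B or SRGAP2C held the CHR letters. RefSeq lists further starts for the FAM72 genes, and the CHR letters were in 2 of 4 FAM72A windows, 1 of 2 FAM72C windows and 1 of 3 FAM72D windows. Neither E2F motif searched, TTTCCCGC or TTTGGCGC on either strand, was in any member's window (0 of 13).

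These letters are common. Over all 35116 promoter windows of 300 bases, 15.2% held TTTGAA and 34.6% held CCAAT, and 1.78% held TTTGAA with 2 or more CCAAT. Of 14250 measured genes with a window, 2.23% had this last combination in at least 1 window. Among 44 genes of the G2/M list with a window it was 45.5%, and among 32 S-phase genes 6.25%. The combination was chosen after the FAM72 sequences were seen, and the near-identical windows of FAM72A, FAM72C and FAM72D are not separate observations of it. A match of letters is a description of the sequence and does not show a bound factor.

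**Figure D1:**
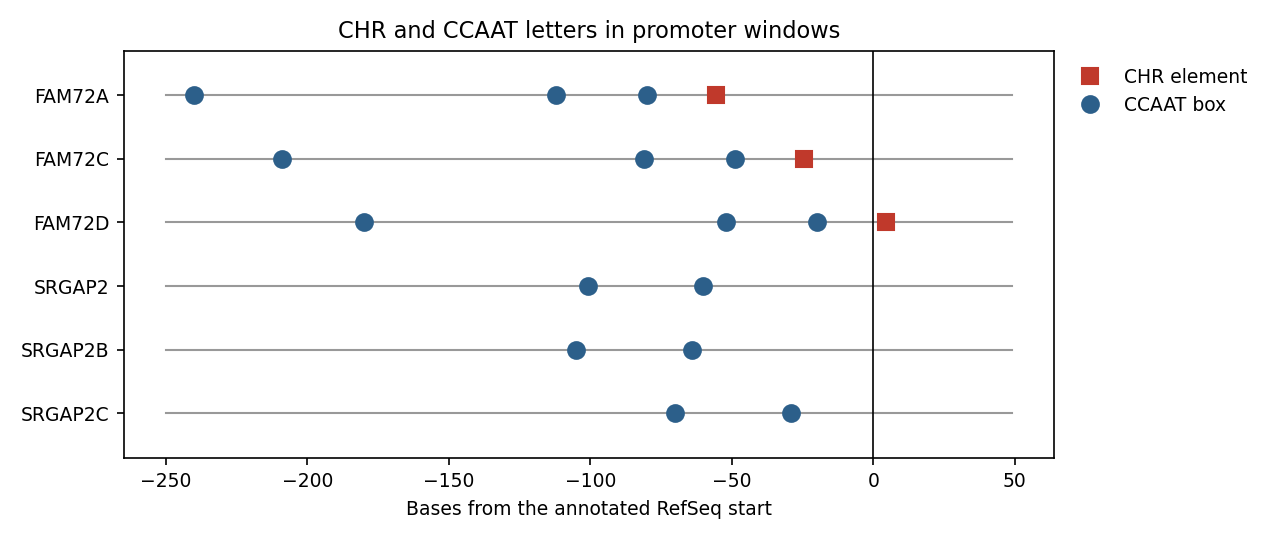
Positions of CHR letters (red squares) and CCAAT letters (blue circles), on either strand, in 1 RefSeq promoter window per gene; the x axis gives bases from the annotated start, marked by the vertical line, and grey lines show the window. The FAM72A, FAM72C and FAM72D windows carry 3 CCAAT and 1 CHR match at the same spacing, shifted by their annotated starts, and the SRGAP2, SRGAP2B and SRGAP2C windows carry 2 CCAAT matches and no CHR match.

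All 4 FAM72 copies had less signal in siERK3 cells. FAM72A, the copy beside full-length SRGAP2, had log2 signals of 11.42, 11.61 and 11.44 on the siERK3 arrays, against 12.28, 12.46 and 12.31 on the siCon arrays. The 2 groups did not overlap, and 0.68 separated the highest siERK3 array from the lowest siCon array. Its mean was 11.49 ± 0.11 in siERK3 and 12.35 ± 0.09 in siCon (SD, n = 3 each), a log2 change of -0.86 (SE 0.13, 95% interval -1.16 to -0.56), which left 54.9% of the control signal. In bulk RNA, fewer cells expressing a gene and less RNA per cell cannot be told apart.

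FAM72B had the largest change among the copies. Its log2 signals were 11.32, 11.35 and 11.37 in siERK3, against 12.40, 12.39 and 12.17 in siCon. The siERK3 arrays lay close together, with an SD of 0.028, and well below siCon 3, the lowest control array. The log2 change was -0.97 (SE 0.13, 95% interval -1.27 to -0.67), or 51.0% of the control signal.

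FAM72D gave 11.25, 11.38 and 11.16 in siERK3, against 12.12, 12.24 and 12.20 in siCon. These groups were again apart by more than their spread, with 0.74 between the nearest arrays. The log2 change was -0.93 (SE 0.13, 95% interval -1.22 to -0.63), or 52.7% of the control signal.

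FAM72C had the smallest change of the FAM72 copies. Its values were 12.06, 11.99 and 11.89 in siERK3, against 12.68, 12.68 and 12.70 in siCon. The control arrays were nearly equal (SD 0.0081) and the groups did not overlap. The log2 change was -0.71 (SE 0.12, 95% interval -0.99 to -0.42), or 61.3% of the control signal.

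Ranked by log2 change from the lowest upwards among the 17687 genes, FAM72B was at place 60, FAM72D at 66, FAM72A at 85 and FAM72C at 193. In limma with Benjamini-Hochberg adjustment over all genes, 4 of 4 FAM72 copies were below the threshold of 0.05 and lower in siERK3, where 0.509% of all genes were called lower; since this contrast chose them, nothing is read from that count. The calls rested on all 6 arrays: with any 1 array omitted 0 of the 4 passed, and in those 6 fits the median change of the 4 was between -0.95 and -0.85.

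The SRGAP2 copies differed less between the groups. SRGAP2 had log2 signals of 12.23, 12.24 and 12.22 in siERK3, against 12.41, 12.36 and 12.42 in siCon. The groups did not overlap, but the step was small: the log2 change was -0.17 (SE 0.12, 95% interval -0.44 to 0.11), or 89.1% of the control signal. The spread of its 3 siERK3 arrays (SD 0.0074) was far below that standard error, because limma's moderation draws a gene's spread toward that of all genes.

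SRGAP2C, the truncated copy known to inhibit SRGAP2, gave 13.61, 13.56 and 13.51 in siERK3, against 13.66, 13.70 and 13.78 in siCon. Only 0.048 separated the nearest arrays of the groups. The log2 change was -0.15 (SE 0.12, 95% interval -0.44 to 0.13).

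SRGAP2B, the other truncated copy, had 13.35, 13.12 and 13.33 in siERK3, against 13.62, 13.39 and 13.64 in siCon. The groups were 0.040 apart at their nearest, and each held 1 array that lay lower than the other two, siERK3 2 and siCon 2. The log2 change was -0.28 (SE 0.14, 95% interval -0.60 to 0.04), or 82.2% of the control signal.

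In limma 0 of 3 SRGAP2 copies were called, and 0.956% of all genes were called in either direction. For all 7 members every siERK3 value was under every siCon value, a pattern found in 9.70% of all genes; the members were chosen on this contrast and nothing is read from that count. All 7 members were above the background level on all 6 arrays, so none of these changes is a bound.

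**Figure D2:**
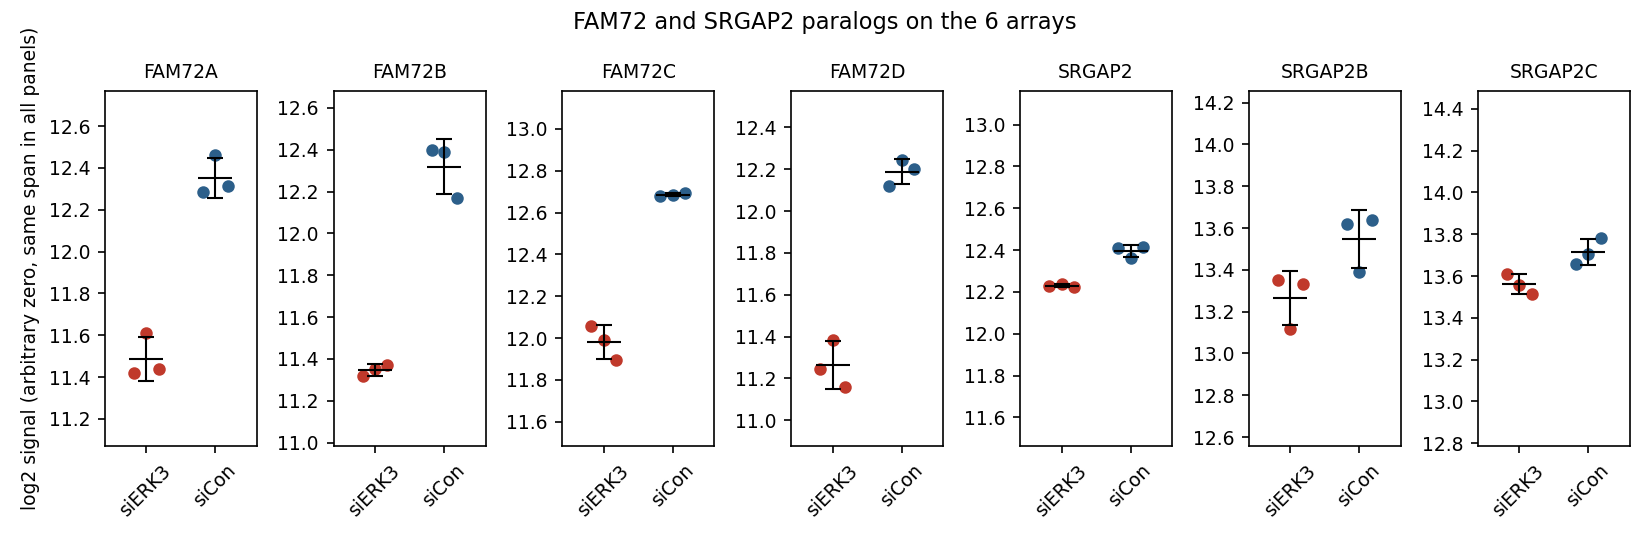
Log2 signal of each member on the 3 siERK3 arrays (red, left) and the 3 siCon arrays (blue, right); bars give the mean and SD, and every panel spans the same range of the log2 scale around its own centre. The groups are apart by 0.62 to 0.80 at their nearest arrays for the FAM72 copies and by 0.040 to 0.12 for the SRGAP2 copies.

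Because adjacent genes were read on the same arrays, their ratio could be followed array by array. With the siCon mean set to 0, the FAM72A to SRGAP2 log2 ratio was -0.77, -0.59 and -0.74 in siERK3, against -0.08, 0.14 and -0.06 in siCon. FAM72B to SRGAP2C gave -0.90, -0.81 and -0.75 in siERK3, against 0.14, 0.08 and -0.22 in siCon. The FAM72D to SRGAP2B ratio was -0.74, -0.37 and -0.81 in siERK3, against -0.14, 0.21 and -0.08 in siCon. In all 3 pairs the siERK3 ratios lay below the siCon ratios without overlap, with mean differences of -0.70, -0.82 and -0.64. The FAM72 copies were chosen for their low siERK3 values and the SRGAP2 copies only as neighbours, so this direction is largely set by the choice of genes. The ratios are a description and do not show that SRGAP2 copies were unaffected.

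**Figure D3:**
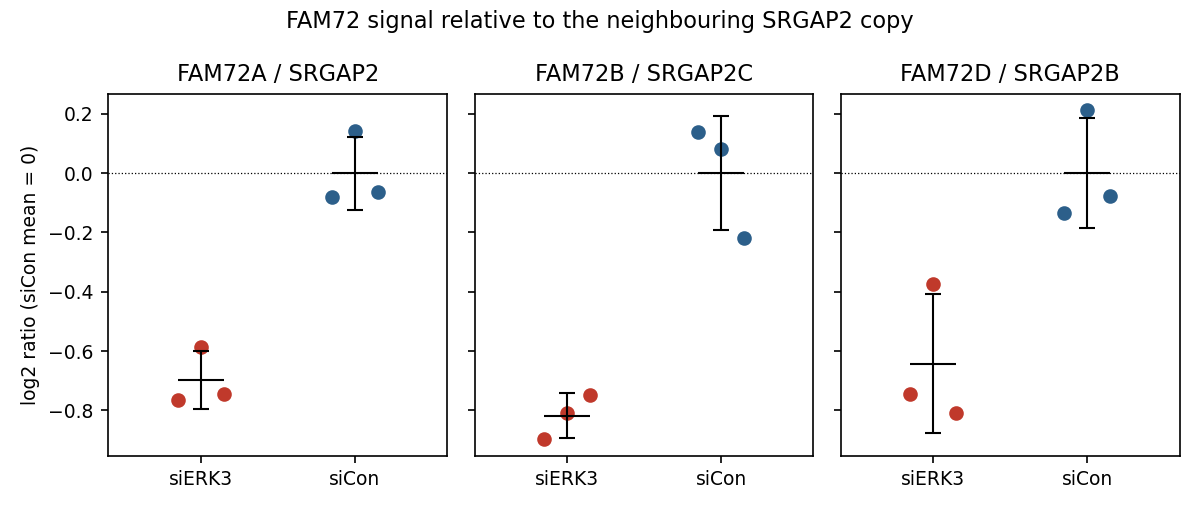
Log2 ratio of each FAM72 gene to the SRGAP2 copy beside it, with the mean of the siCon arrays set to 0, on the siERK3 arrays (red, left) and the siCon arrays (blue, right) with mean and SD. The siERK3 ratios lie between -0.90 and -0.37 and the siCon ratios between -0.22 and 0.21.

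Among the FAM72 copies the 95% intervals of the 4 changes overlapped, and of the 5 ratios taken between copies 1 separated the groups. The ratio of FAM72B to FAM72D was not taken. The FAM72C to FAM72D log2 ratio, with the siCon mean at 0, was 0.31, 0.11 and 0.24 in siERK3, against 0.06, -0.06 and -0.0042 in siCon, without overlap. For FAM72C to FAM72A it was 0.30, 0.05 and 0.12 in siERK3, against 0.06, -0.11 and 0.05 in siCon, and these values overlapped. FAM72C to FAM72B gave 0.37, 0.27 and 0.16 in siERK3, against -0.09, -0.07 and 0.16 in siCon, and siERK3 3 lay just under siCon 3, so the groups overlapped. FAM72B to FAM72A, with a mean difference of -0.11, overlapped too. FAM72D and FAM72A kept the steadiest ratio, with a mean difference of -0.06 and SDs of 0.054 in siERK3 and 0.055 in siCon. The 4 genes are near-identical copies, and the probe sequences were not used here. How far 1 probe set also reads the transcripts of the other copies was not tested, so the 4 values cannot be taken as 4 separate measurements of the change. The same holds for the 3 SRGAP2 copies.

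Likeness was measured as the root mean square difference over the 6 arrays between the values of 2 genes, each minus its own mean. The gene most like FAM72D among all measured was FAM72A, at 0.054 on the log2 scale, where the median gene stood at 0.51 from FAM72D. This measure includes the group difference on which the copies were chosen, so closeness among them is largely set by that choice. From FAM72C, the copies FAM72A, FAM72B and FAM72D were at places 69, 270 and 91 on it. With each group's mean removed as well, so that only the spread among replicates counts, FAM72A stood at 0.044 from FAM72D, which put it at place 121 among all measured genes. FAM72C was at place 567 and FAM72B at 3252 from FAM72D on that measure. From FAM72C, the places of FAM72A, FAM72B and FAM72D on it were 2487, 3054 and 951. With the group difference FAM72B and FAM72C were the least alike of the copies, at 0.17. Without it they stood at 0.102, and FAM72B and FAM72D at 0.115.

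Outside the family, the profiles most like the mean of the FAM72 copies were those of NRBP1, SLC2A13, IL7R, LRRCC1 and TCP11. The group difference on which the copies were chosen is part of that mean profile, so the search favours genes with a similar change. Whether these genes are regulated together was not tested. NRBP1, an adaptor pseudokinase, was nearest at 0.043, where the median gene stood at 0.48, and averaged 10.81 ± 0.09 in siERK3 and 11.70 ± 0.11 in siCon (log2, SD, n = 3 each). SLC2A13 is a myo-inositol transporter (log2 change -0.90), IL7R the receptor chain for interleukin 7 (-0.88) and LRRCC1 a centrosomal protein (-0.83). LRRCC1 was above the background level on 1 of 3 siERK3 arrays and all siCon arrays, and TCP11 was below it on all arrays of both groups. For the mean SRGAP2 profile the nearest were OSBPL10, PFDN4, ERRFI1, OAZ1 and G3BP1, at 0.015 to 0.025, with log2 changes between -0.23 and -0.19. The median gene stood at 0.23 from this profile.

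FAM72 genes are known to be expressed in proliferating cells, so the cell cycle lists are given beside them. Of 52 measured G2/M genes, 44 had a negative log2 change and the median was -0.21, where the median over all genes was -0.0014. In limma 0 of the 52 passed over all genes, and limma's unadjusted p was under 0.05 for 12 lower genes and 1 higher. Every siERK3 value was under every siCon value for 42.3% of them, against 9.70% of all genes. Each of the 4 FAM72 changes was lower than those of all 52 G2/M genes, but the FAM72 copies were chosen for low values in this contrast and the list was not, so nothing is read from that order. The list gene with the lowest log2 change, named after its value was seen, was the kinetochore gene NUF2. It had 10.95, 10.80 and 11.11 in siERK3, against 11.72, 11.50 and 11.59 in siCon (log2 change -0.65, SE 0.14, adjusted p = 0.0796 in limma). The change of SRGAP2 lay within the list, with 32 of 52 members lower.

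S-phase genes had a median of -0.02 over 41 measured. The cyclin gene CCNE2 rose, with 8.03, 8.15 and 8.05 in siERK3, against 7.34, 7.18 and 7.43 in siCon (log2 change 0.76, SE 0.13, adjusted p = 0.0422 in limma). Only 1 of its 3 siCon arrays was above the background level, and with 1 array omitted it passed in 0 of 6 fits, with adjusted p up to 0.152. Genes called higher made up 0.447% of all genes. The other S-phase genes did not pass, with 2 above and 2 below siCon at limma's unadjusted p under 0.05.

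**Figure D4:**
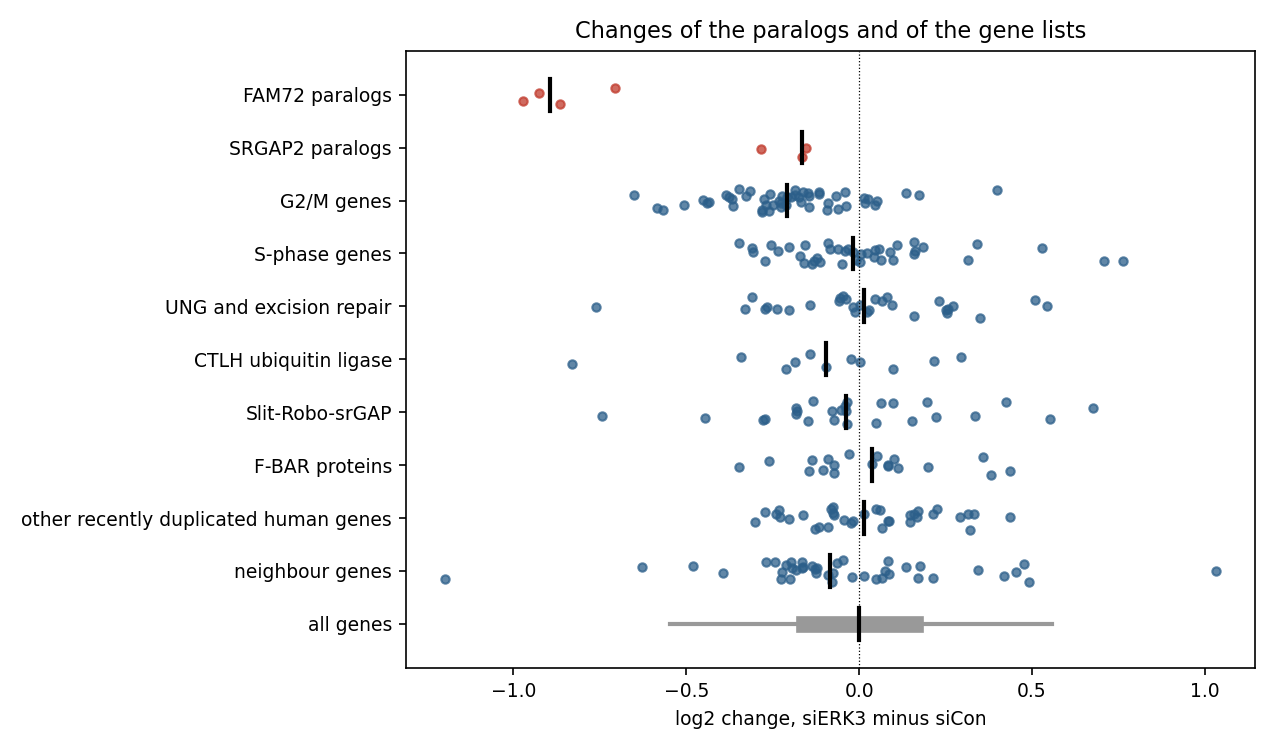
Log2 change, siERK3 minus siCon, of each member (red) and of each measured gene of the lists (blue), with black ticks at the medians; the bottom bar gives the central 95% (thin) and the central 50% (thick) of all genes. The FAM72 copies lie between -0.97 and -0.71, left of all 52 G2/M genes, in the contrast on which they were chosen, and the SRGAP2 copies between -0.28 and -0.15.

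UNG, the partner of FAM72A, showed no difference in RNA that the arrays could resolve, and its protein was not measured. Its log2 signals were 7.99, 7.97 and 7.96 in siERK3, against 8.18, 7.36 and 8.24 in siCon, with a change of 0.05 (SE 0.23, adjusted p = 0.958 in limma). Array siCon 2 was the lowest of the 6. Of 30 measured genes of uracil excision, base excision and mismatch repair, 1 was called lower and 0 higher in limma (3.33%, beside 0.956% of all genes called in either direction), with a median log2 change of 0.01. TDG, the thymine DNA glycosylase, fell: it had 8.33, 8.07 and 8.14 in siERK3, against 9.05, 8.87 and 8.92 in siCon (log2 change -0.76, SE 0.14, adjusted p = 0.0446 in limma). With 1 array omitted it passed in 0 of 6 fits, with adjusted p up to 0.168.

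FAM72A is reported to act on UNG2 through the CTLH ubiquitin ligase. Of its 11 measured subunits and partners 1 was called lower and 0 higher in limma, beside 0.509% of all genes called lower, and the median log2 change was -0.10. RMND5A, a RING subunit, fell, with 10.25, 10.52 and 10.02 in siERK3, against 11.09, 11.10 and 11.09 in siCon. The log2 change was -0.83 (SE 0.15, adjusted p = 0.0499 in limma). With 1 array omitted it passed in 0 of 6 fits, with adjusted p up to 0.179.

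Around SRGAP2, the Slit ligands, Robo receptors and cytoskeletal partners gave 0 calls among 26 measured genes, where limma's unadjusted p was under 0.05 for 3 higher genes and 2 lower. Of the 26 genes, 10 were below the background level on all arrays, SLIT1, SLIT2, SLIT3, ROBO2, ROBO3 and ROBO4 among them. Over all 17687 genes 0.956% were called, and the unadjusted p was under 0.05 for 1235 higher and 1149 lower. Of the sister genes of SRGAP2, SRGAP1 had 8.91, 8.87 and 9.04 in siERK3, against 9.06, 9.56 and 9.54 in siCon. Its log2 change was -0.45 (SE 0.17), with limma's adjusted p = 0.289. SRGAP3 was below the background level on all 6 arrays. The 19 F-BAR proteins gave 0 calls (limma's unadjusted p was under 0.05 for 2 higher and 1 lower) and a median of 0.04. Other human genes with recent copies, such as those of the NBPF family, gave 0 calls among 35 measured (1 higher at an unadjusted p under 0.05 in limma) and a median of 0.01. Below the background level on all arrays were 8 of the 19 F-BAR genes and 12 of these 35, beside 8838 of all 17687 genes.

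Measured genes next in order to the members on chromosome 1 were set beside them. They were taken by gene order alone, whatever their distance in bases. Of 42 measured protein-coding neighbours, up to 10 on each side of each member, 1 was called in limma and was lower, or 2.38%, beside 0.956% of all genes called in either direction. The median log2 change was -0.08 for the neighbours, against -0.0014 over all genes. Around FAM72A and SRGAP2 alone the median was -0.19, and 15 of 20 neighbours had a negative change, where 8881 of all 17687 genes had one. Of all 42 neighbours 18, and of these 20 neighbours 8, were below the background level on all arrays. Every siERK3 value was under every siCon value for 16.7% of all 42 and for 5 of these 20, against 9.70% of all genes. Among those 5, SLC26A9 and IL10 were below the background level on all arrays.

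The called neighbour was IL24, a cytokine of the IL-10 family, which lies on the SRGAP2 side of FAM72A. It had 10.66, 10.76 and 10.71 in siERK3, against 12.10, 11.59 and 12.01 in siCon (log2 change -1.20, SE 0.16, adjusted p = 0.0167 in limma). With 1 array omitted it passed in 1 of 6 fits, the one without siCon 2, and its adjusted p reached 0.0805. Of the 8 measured genes between SRGAP2 and IL24, IKBKE, next to SRGAP2, had a log2 change of 0.14 (SE 0.17) and RASSF5 after it 0.45 (SE 0.19). The other 6 had negative changes, EIF2D of -0.48 (SE 0.13, adjusted p = 0.148 in limma), DYRK3 of -0.02 and MAPKAPK2 of -0.19. IL10, IL19 and IL20, at -0.24, -0.23 and -0.27, were below the background level on all arrays. None of the 8 passed in limma, whose unadjusted p was under 0.05 for RASSF5 and EIF2D. The groups did not overlap for RASSF5, which was higher in siERK3, and for EIF2D and IL10, which were lower. Over all genes 9.70% had every siERK3 value under every siCon value, and 1785 of 17687 had every siERK3 value above. On the other side, AVPR1B, the nearest measured gene to FAM72A, was below the background level on all arrays. SLC41A1, a magnesium transporter further out, had 1.03 (SE 0.19, adjusted p = 0.0520 in limma) and NUCKS1 had -0.63 (SE 0.13, adjusted p = 0.0655). Apart from IL24, the choice of these genes was made with their values in view.

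For the copies near the centromere, gene order crosses a wide gap: SRGAP2C starts at base 121184975 and FAM72C at base 143971986. Some genes counted as neighbours of a copy, such as NOTCH2 for FAM72C, therefore lie on the far side of that gap. In limma 0 neighbours of these copies passed. Of the 22 for FAM72C, SRGAP2B and FAM72D, limma's unadjusted p was under 0.05 for 1 higher and 1 lower. Their log2 changes ran from -0.40 to 0.49, with a median of -0.02. Of these 22 neighbours, 10 were below the background level on all arrays. None of the 22 was as low as FAM72B, FAM72C or FAM72D. Those copies were chosen for low values in this contrast and the neighbours were not, so nothing is read from that order. NOTCH2, itself a gene with partial copies in this region and named with its value in view, had a change of 0.01 (SE 0.15).

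**Figure D5:**
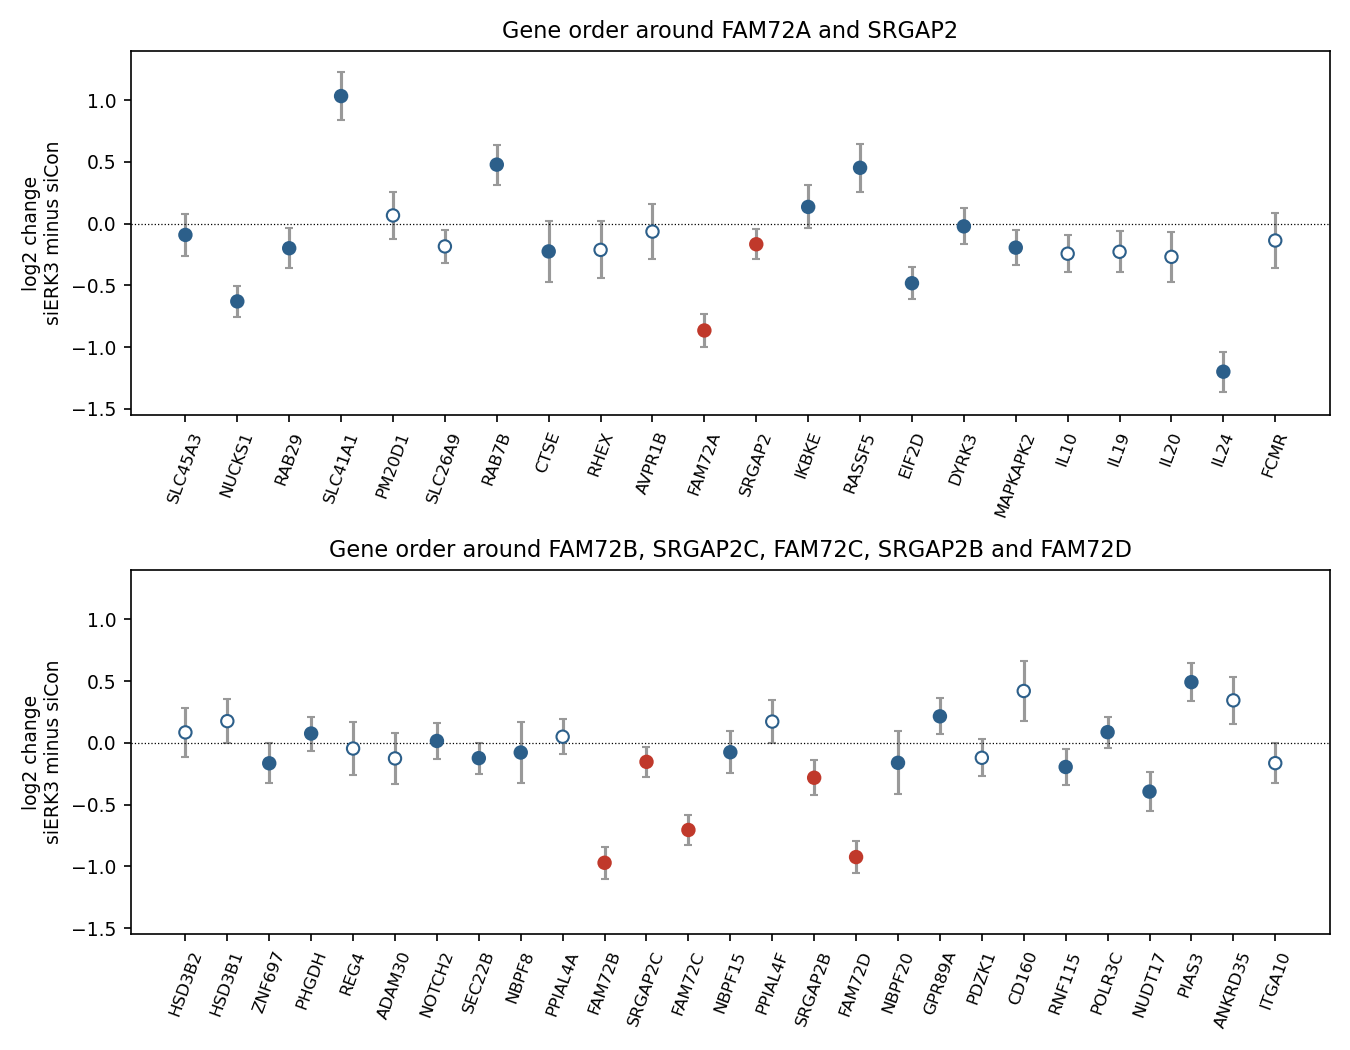
Log2 change, siERK3 minus siCon, with limma's standard error, of the members (red) and of their measured protein-coding neighbours (blue; open where no array was above the background level), in gene order along chromosome 1 and not to scale. FAM72A, FAM72B, FAM72C and FAM72D lie between -0.97 and -0.71, in the contrast on which they were chosen. The neighbours run from IL24 at -1.20 to SLC41A1 at 1.03, with IKBKE, next to SRGAP2, at 0.14 and NOTCH2 at 0.01.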

How the data were processed

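The authors deposited a log2 signal for each probe set on each array. That the scale is log2 was judged from the range of the values, and its zero point is unknown. The steps of summarisation and normalization were not given in the sources used. Levels of different probe sets were not compared. Of 17687 genes named by the platform annotation, all matched RefSeq by Entrez identifier. For genes with several probe sets the brightest was used, with no filter or pseudocount. Differences, siERK3 minus siCon, came from limma 3.58.1 (R 4.3.3, lmFit and eBayes); p-values were adjusted by Benjamini-Hochberg over all genes, with 0.05 as the threshold. The number of arrays limits the precision; standard errors of genes had a median of 0.165. The script was tested on simulated data. Promoter sequences are RefSeq's (GRCh38.p14).

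The members, gene lists, motifs and tests were chosen with earlier results of these data known. Genes named are the 7 members, MAPK6, UNG, SRGAP1, SRGAP3, up to 4 called members of each list, and the 5 genes nearest to each family's mean profile; the choice of other genes was made with their values in view. Alternatives were quantile, median and cyclic loess scaling, a filter at the 30th percentile of mean level, a variance trend with robust eBayes, array weights, the replicate number as a block, the mean over probe sets of the same gene, and each array left out in turn.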

Additional observations from a re-analysis of the deposited data

How the results depend on the processing

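The direction of all 7 members' changes held in each of the 14 alternative fits. The FAM72 median was -0.91 to -0.87 and the SRGAP2 median -0.18 to -0.15 over 8 other settings, and -0.95 to -0.85 and -0.18 to -0.16 with 1 array left out. MAPK6 passed limma in every one (highest adjusted p 0.00304). Counts of calls moved more, and the cause was not tested. Over all genes 169 were called, against 365 above the 30th percentile of mean level, 722 with the variance trend, 33 with the replicate number as a block and 23 to 60 with 1 array left out. The 4 FAM72 calls were 0 under the block and 0 with any array left out. Over all genes, same-numbered arrays did not deviate together (r of deviations from group means 0.0492, -0.124 and -0.0386 for numbers 1, 2 and 3). With 3 arrays a group, these values cannot settle whether the numbers pair the samples. Under the block the single calls among the repair genes, the CTLH ligase, the S-phase genes and the neighbours were also 0, and with 1 array left out they were 0, apart from 0 to 1 for the neighbours. G2/M genes had 2 calls with the level filter and 6 with the variance trend. S-phase genes had 2 with the filter, the trend or array weights. The Slit-Robo list had 1 with the filter and 2 with the trend. The neighbours had 2 with quantile or cyclic loess scaling, 3 with the filter and 4 with the trend. Array number limits what could be seen for small changes such as those of the SRGAP2 copies.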

Other observations

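The promoter letters shared by FAM72A, FAM72C and FAM72D were also counted over all measured genes with a window, with the members left out. This combination of motifs was chosen after the FAM72 sequences were seen. Of 315 genes whose window held the CHR letters with 2 or more CCAAT, limma called 4 lower and 1 higher, and the median log2 change was -0.03. The 13929 genes without the combination had 61 lower and 64 higher, with a median of 0.00041. Every siERK3 value was under every siCon value for 14.9% of the genes with it and for 9.83% of those without it. For TTTCCCGC, an E2F motif that no member's window held, the shares were close to these, at 14.1% of 382 genes with it and 9.83% of those without it. For TTTGGCGC, the other E2F motif, they were 8.78% of 148 genes with it and 9.95% of those without it. Nothing particular to the FAM72 motifs is read from these shares.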
